A study of Homo sapiens with 6 samples.

Results

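The Hippo pathway and the genes driven by its effector YAP were examined in the human cell line SW-1990, an established pancreatic adenocarcinoma line from a metastasis in the spleen. The genes were chosen by name, with earlier results of these data known. They were 24 of the core pathway and 14 targets of YAP and TEAD. Of these 24 and 13 could be measured, 37 of the 19775 genes on the arrays. NUAK2 was not analysed, because its probe set carries several gene symbols. Both groups came from cells infected with lentivirus and kept for more than 7 days in puromycin at 1 µg/ml. The sh-Ctrl cells carried a scrambled short hairpin RNA (shRNA), and the sh-PRLR cells an shRNA directed at PRLR, the prolactin receptor. Each group had 3 Affymetrix U133 Plus 2.0 arrays of total RNA, given by the labels as biological replicates. Whether the lines were clones or pools, how many hairpins were used and whether the replicates were separate infections are not given in the sources used here.

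In the Hippo pathway the kinases encoded by STK3 and STK4, with their partner SAV1, activate the kinases LATS1 and LATS2, which work with MOB1A and MOB1B. LATS kinases phosphorylate the coactivators YAP1 and WWTR1 (TAZ) and keep them out of the nucleus, and when this brake is off both bind TEAD factors and switch on genes such as CCN1, CCN2 and ANKRD1. YAP is known for supporting the growth of pancreatic tumours. Because control runs mainly through phosphorylation and location of the proteins, transcript levels do not read pathway activity directly, and the targets are the usual readout. The comparison asks which transcripts differ after PRLR knockdown.

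TEAD factors bind the letters GGAATG. For AP-1, which often acts beside them, the loose pattern TGANTCA was used, in which N is any base. Both were searched on either strand in the 250 bases before the transcription start, in RefSeq promoters (GRCh38.p14) found for 21 core genes and 9 targets, NUAK2 included. The TEAD letters were present in 5 of 9 targets (CCN2, TGFB2, AXL, ANKRD1 and NUAK2) and in 4 of 21 core genes (RASSF1, AMOTL2, PTPN14 and YAP1), against 14.3% of the 27305 genes with a promoter. The AP-1 letters were present in 2 of 9 targets (F3 and ANKRD1) and 2 of 21 core genes (LATS1 and MOB1B), against 8.06% of all genes. The free base was A in LATS1, T in MOB1B and ANKRD1, and A and G in the matches of F3. A match of letters is not a measured binding site, and TEAD often acts from distant enhancers outside these windows. The promoters shown are those of CCN2 and ANKRD1, measured targets with more than 1 TEAD match, of F3 and NT5E, which rose, and of FJX1 and PTPN14, which fell. They run 5′ to 3′ on the strand of the gene, and capitals mark the TEAD letters, on either strand, and the AP-1 letters.
CCN2, chr6:131951373-131951622, minus strand: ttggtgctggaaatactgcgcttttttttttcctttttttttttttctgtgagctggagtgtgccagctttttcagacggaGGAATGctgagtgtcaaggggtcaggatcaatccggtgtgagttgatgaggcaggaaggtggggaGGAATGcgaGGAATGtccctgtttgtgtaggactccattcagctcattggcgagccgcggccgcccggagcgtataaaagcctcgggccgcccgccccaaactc
ANKRD1, chr10:90921088-90921337, minus strand: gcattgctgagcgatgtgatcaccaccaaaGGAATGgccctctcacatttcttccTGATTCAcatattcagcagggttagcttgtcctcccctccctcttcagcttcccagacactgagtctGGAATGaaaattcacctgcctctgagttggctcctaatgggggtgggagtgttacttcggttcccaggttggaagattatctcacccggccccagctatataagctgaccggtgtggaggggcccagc
F3, chr1:94541760-94542009, minus strand: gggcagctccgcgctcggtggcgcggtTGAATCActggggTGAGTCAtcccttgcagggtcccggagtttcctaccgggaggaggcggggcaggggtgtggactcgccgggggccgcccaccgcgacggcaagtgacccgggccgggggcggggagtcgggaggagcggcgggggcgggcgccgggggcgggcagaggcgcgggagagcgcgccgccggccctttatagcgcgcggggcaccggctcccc
NT5E, chr6:85449833-85450082, plus strand: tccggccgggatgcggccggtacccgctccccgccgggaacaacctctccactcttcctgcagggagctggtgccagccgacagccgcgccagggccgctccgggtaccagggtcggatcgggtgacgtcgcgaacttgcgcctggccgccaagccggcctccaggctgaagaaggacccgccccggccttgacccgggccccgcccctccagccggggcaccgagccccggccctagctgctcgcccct
FJX1, chr11:35618210-35618459, plus strand: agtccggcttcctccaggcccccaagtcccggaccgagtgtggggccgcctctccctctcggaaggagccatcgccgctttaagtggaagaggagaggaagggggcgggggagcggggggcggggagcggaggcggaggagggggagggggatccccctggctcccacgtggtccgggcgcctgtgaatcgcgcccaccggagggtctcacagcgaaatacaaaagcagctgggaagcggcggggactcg
PTPN14, chr1:214551603-214551852, minus strand: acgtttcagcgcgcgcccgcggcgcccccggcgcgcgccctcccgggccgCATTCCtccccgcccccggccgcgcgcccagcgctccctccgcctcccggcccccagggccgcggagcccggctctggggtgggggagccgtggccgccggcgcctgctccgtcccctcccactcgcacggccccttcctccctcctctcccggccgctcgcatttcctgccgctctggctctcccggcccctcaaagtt
CCN2 held 3 TEAD matches, starting 169, 104 and 95 bases before the start, the last pair 3 bases apart. ANKRD1 held 2, at 220 and 128 bases, with an AP-1 match at 195 bases between them. NUAK2, which was not measured, also held 2 TEAD matches, at 197 and 18 bases. F3 held 2 AP-1 matches, at 223 and 210 bases, and no TEAD match. NT5E and FJX1 held neither motif in this window, and PTPN14 held 1 TEAD match at 200 bases.

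**Figure D1:**
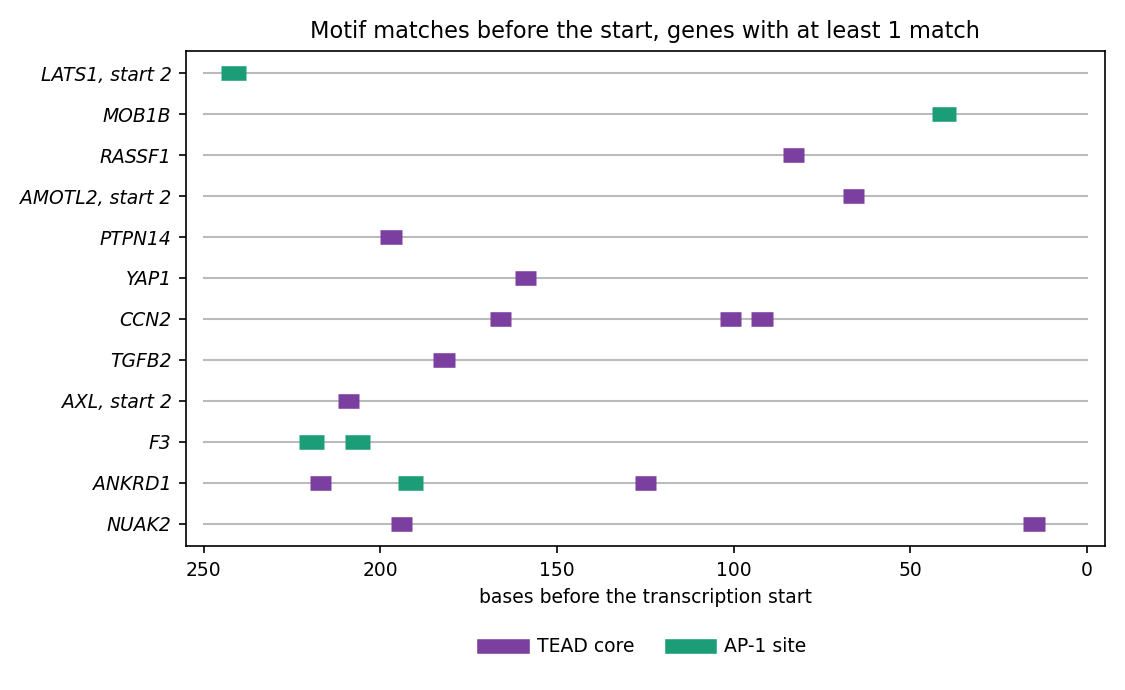
Positions of TEAD (GGAATG) and AP-1 (TGANTCA) letters, on either strand, in the 250 bases before the transcription start of the genes with at least 1 match (x axis, bases before the start; a number after a gene marks its second listed start). CCN2 has 3 TEAD matches, ANKRD1 has 2 with an AP-1 match between them, and F3 has 2 AP-1 matches.

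All levels are deposited log2 signals with the SD of 3 arrays. A difference is the sh-PRLR mean less the sh-Ctrl mean, with its SE or 95% interval from limma. The probe set of the highest mean signal stands for a gene, and control and knockdown arrays are those of sh-Ctrl and sh-PRLR, in replicate order. "Rose" and "fell" mean a Benjamini-Hochberg adjusted p under 0.05 over all genes in limma with variance dependent on intensity. PRLR was dim: averaged over its 7 probe sets it went from 5.02 ± 0.22 in sh-Ctrl to 4.17 ± 0.22 in sh-PRLR, both below the median gene level of 7.23. This is lower by 0.85 on the log2 scale, with a two-sided p of 0.1 by exact permutation, which with 3 arrays a group cannot be smaller. All 7 PRLR probe sets had a lower mean in sh-PRLR, although in limma 0 passed in the fit over all probe sets (2 had an unadjusted p under 0.05, and 3 with default variance). The probe set of highest mean, 227629_at, differed by only -0.23 with overlap (95% interval -1.09 to 0.63, limma adjusted p = 0.833). On the measure used for the other genes the knockdown was therefore not resolved. Of 10 duct epithelium markers 9 lay above the median gene level, MUC1 being the exception. CFTR, GATA6 and CDH1 fell, 3 of the 10, where 4.32% of all genes and 808 of the 9887 above the median level fell. Of 14 markers of fibroblasts, leukocytes and endothelium 3 also lay above the median gene level (COL1A1, CD79A and PECAM1). Among the 14, 0 passed limma and 3 had an unadjusted p under 0.05 (2 with limma's default variance).

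Of the 37 genes, 2 rose and 4 fell, 16.2%, where 7.66% of all genes passed. Bright genes pass more easily, and 31 of the 37 lay above the median level: among those 19.4% passed, beside 14.6% of all genes above it. In the core pathway 0 genes rose and 3 fell, the kinase gene MAP4K4, the scaffold gene SAV1 and the phosphatase gene PTPN14, where 3.34% of all genes rose and 4.32% fell. That is 12.5% of the 24 core genes, of which 21 lay above the median level. Of the 9887 genes above that level 636 rose and 808 fell, 14.6% together. Among the targets NT5E and F3 rose and FJX1 fell, 23.1% of the 13, of which 10 lay above the median level. The median difference was 0.02 in the core and -0.04 in the targets, against -0.0013 over all genes, and the median size of the difference was 0.14 and 0.21, against 0.24 over all genes and 0.14 over those above the median level. With limma's default variance 0 of 37 genes passed (9 had an unadjusted p under 0.05), where 0.0202% of all genes passed, so every rise and fall here rests on the intensity-dependent variance, with which 11 of the 37 had an unadjusted p under 0.05.

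**Figure D2:**
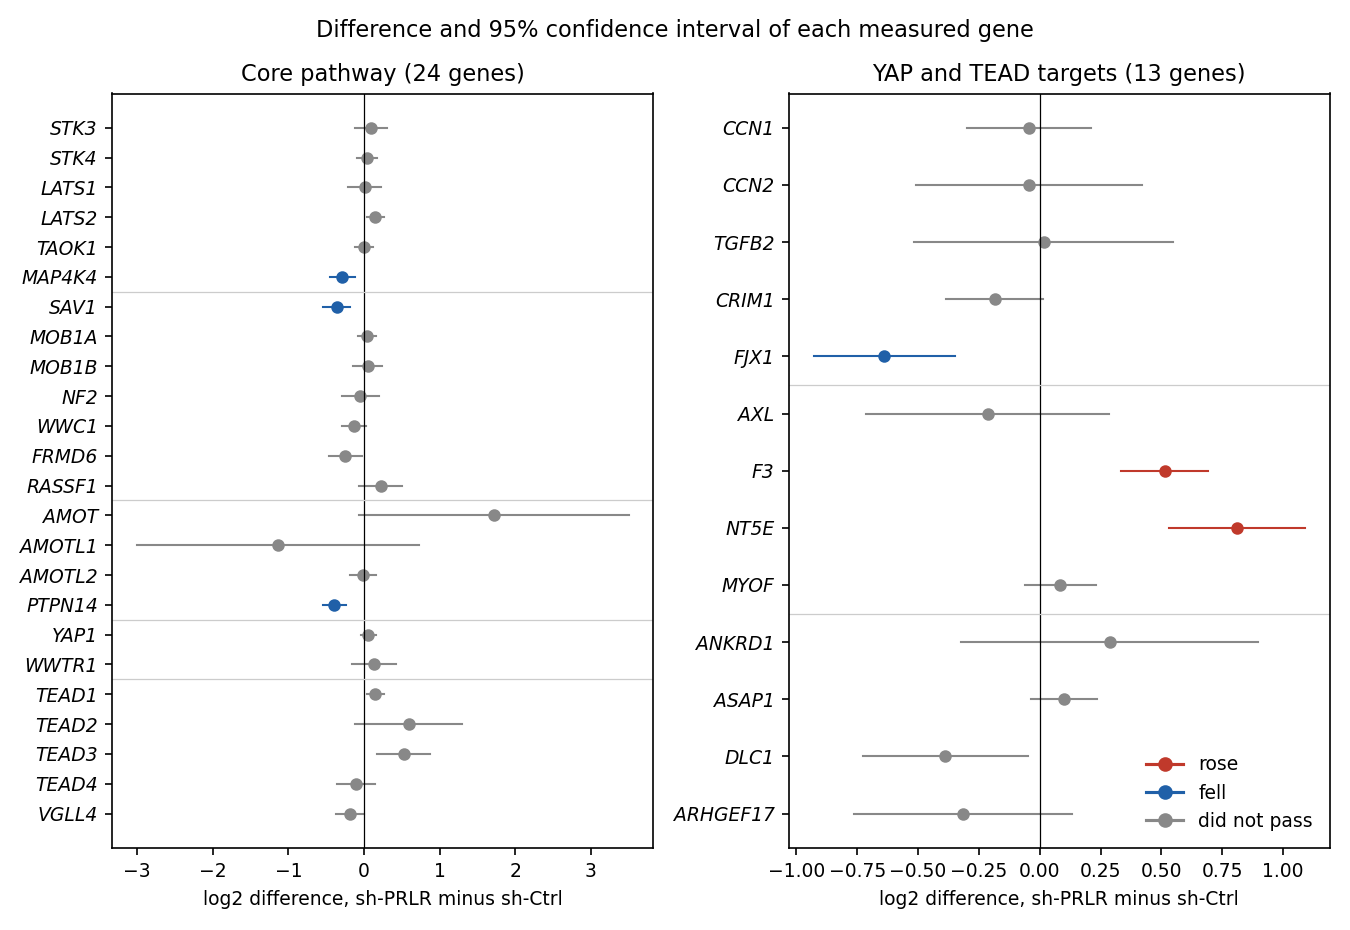
Log2 difference (x axis, sh-PRLR minus sh-Ctrl; note the wider scale at left) of each measured gene with its 95% confidence interval from limma, core pathway at left and targets at right, with grey lines between roles. In the core MAP4K4, SAV1 and PTPN14 fell; among the targets NT5E (0.81) and F3 (0.51) rose and FJX1 (-0.64) fell.

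Among the kinases, MAP4K4, which can activate LATS kinases alongside STK3 and STK4, read 10.35, 10.45 and 10.23 in control arrays and 10.08, 10.08 and 10.02 in knockdown arrays. All sh-PRLR arrays lay below all sh-Ctrl arrays. It fell by 0.29 on the log2 scale (SE 0.08, limma adjusted p = 0.0465). Of its 5 probe sets 4 were lower, and none passed in the fit over all probe sets (limma adjusted p = 0.0656 for this one, 206571_s_at). The call was present in 3 of 14 other settings. It was lost without sh-Ctrl replicate 1 (-0.28, limma adjusted p = 0.132) or 2 (-0.23, 0.187), or sh-PRLR replicate 1 (-0.30, 0.0729), 2 (-0.30, 0.109) or 3 (-0.27, 0.130), and with the replicate number as a block (limma adjusted p = 0.0692). With averaged probe sets the difference shrank to -0.14 (limma adjusted p = 0.587), and without _x_at and _s_at probe sets, where another probe set stands for the gene, to -0.051 (0.867).

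The other kinase genes did not pass. LATS2, a LATS kinase gene that is itself switched on by YAP, read 11.85, 11.91 and 11.93 in control arrays and 12.09, 12.04 and 12.01 in knockdown arrays. Its groups did not overlap, but the difference of 0.15 missed the threshold (95% interval 0.04 to 0.26, limma adjusted p = 0.113), and all 4 of its probe sets had a higher mean in sh-PRLR. LATS1 differed by 0.01 (-0.21 to 0.23), STK3 by 0.09 (-0.12 to 0.30), STK4 by 0.04 (-0.09 to 0.17) and TAOK1, another upstream kinase gene, by -0.0011 (-0.12 to 0.12). For the probe sets that stand for these genes the 95% intervals lay between -0.21 and 0.30. Dimmer probe sets left wider intervals. LATS1 1570425_s_at (0.46, -0.22 to 1.14) and TAOK1 238420_at (0.39, -0.06 to 0.84) were higher without overlap, neither passing. LATS1 1570231_at (-1.02, -3.44 to 1.41) and TAOK1 216310_at (-0.20, -1.63 to 1.24) were lower with overlap.

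Among the scaffolds, SAV1, whose protein binds STK3 and STK4 and brings them to LATS, read 10.83, 10.65 and 10.62 in control arrays and 10.35, 10.23 and 10.44 in knockdown arrays. The groups did not overlap. It fell by 0.36 (SE 0.08, limma adjusted p = 0.0238), to 0.779 of the control level. Its 3 bright probe sets gave nearly the same difference, and each passed in the fit over all probe sets: -0.36 for 234491_s_at, -0.38 for 218276_s_at and -0.40 for 222573_s_at (limma adjusted p = 0.0342, 0.00917 and 0.0102). The tightest of these, 218276_s_at, read 10.53, 10.53 and 10.51 against 10.10, 10.20 and 10.13. The dimmer 238729_x_at went the other way (0.34) and 240421_x_at differed by -0.0037, neither passing; with all 5 averaged, SAV1 was lower by 0.16 and did not pass (limma adjusted p = 0.376). The call was also lost with median centring (-0.39, limma adjusted p = 0.0574) and without sh-Ctrl replicate 1 (-0.30, 0.0983) or 2 (-0.38, 0.0687), or sh-PRLR replicate 2 (-0.30, 0.0908).

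The other 6 scaffold and adaptor genes did not pass. FRMD6, a membrane-linked activator of the kinases, was lower by 0.25 (95% interval -0.46 to -0.03, limma adjusted p = 0.179), with overlapping groups, and its second probe set differed by 0.03. WWC1, which encodes the LATS-binding protein KIBRA, read 10.35, 10.39 and 10.36 in control arrays and 10.14, 10.30 and 10.28 in knockdown arrays. The difference was -0.13 without overlap (limma adjusted p = 0.343). Its other probe sets disagreed, none passing. 216074_x_at (-0.32) and the dim 241950_at (-1.64) were lower without overlap. The dim 229180_at, 243290_at and 1554511_at were higher by 0.49, 0.97 and 1.01 with overlap, and 236725_at and 237238_at differed by -0.02 and 0.04. MOB1A and MOB1B, the LATS cofactors, differed by 0.04 and 0.05, NF2, the tumour suppressor merlin that brings LATS to the membrane, by -0.05, and RASSF1, which binds STK3 and STK4, by 0.22. The intervals of these 4, each for the probe set that stands for the gene, reached from -0.29 to 0.50. All other NF2 probe sets were also lower, except the dim 238618_at (0.80). Among them 211091_s_at, below the median gene level, differed by -0.40 without overlap, and the brighter 217150_s_at by -0.23 with overlap. None of the NF2 probe sets passed.

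PTPN14, a junctional phosphatase that binds YAP and is also switched on by it, read 11.69, 11.75 and 11.76 in control arrays and 11.43, 11.40 and 11.19 in knockdown arrays. The lowest control array stood above the highest knockdown array. PTPN14 fell by 0.39 (SE 0.07, limma adjusted p = 0.00757), to 0.763 of the control level, and passed without any single array. Of its other probe sets, 244533_at (-0.27) and 205503_at (-0.28) were lower without overlap and without passing, and the dim 242321_at was higher by 0.29. It no longer passed with median centring (-0.42, limma adjusted p = 0.0752) or with all 4 probe sets averaged (-0.16, 0.541).

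The angiomotin genes encode junction proteins that hold YAP at the membrane. AMOTL2, which is also a YAP target, read 12.79, 13.08 and 13.07 in control arrays and 12.92, 13.07 and 12.91 in knockdown arrays. These ranges overlap fully, and the difference of -0.02 had a 95% interval of -0.19 to 0.16. AMOT and AMOTL1 lay below the median gene level, where single arrays scattered by several log2 units. AMOT read 5.53, 2.69 and 2.94 in control arrays and 5.08, 5.31 and 5.94 in knockdown arrays, and AMOTL1 5.14, 4.96 and 4.81 against 1.90, 4.93 and 4.66. For AMOT a pair of low control arrays, and for AMOTL1 sh-PRLR replicate 1, set the mean, and the intervals ran from -0.06 to 3.50 and from -3.00 to 0.72.

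YAP1, the coactivator itself, read 12.83, 12.86 and 12.82 in control arrays and 12.91, 12.85 and 12.91 in knockdown arrays. The arrays overlapped within a narrow range, and the difference was 0.06 (95% interval -0.04 to 0.16, limma adjusted p = 0.534). Its other probe sets, 224895_at and 213342_at, differed by 0.06 and -0.05. WWTR1, the gene of the YAP paralog TAZ, read 8.12, 8.09 and 7.89 against 8.21, 8.11 and 8.18, a difference of 0.13 with overlap (-0.15 to 0.42). Its dimmer probe sets 202132_at and 202134_s_at were lower by 0.25 and 1.03 without passing, so its direction depends on the probe set.

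The 4 TEAD genes encode the DNA-binding partners of YAP and TAZ. TEAD3 read 7.13, 7.28 and 7.36 in control arrays and 7.68, 7.84 and 7.84 in knockdown arrays. The groups stood well apart, but its single probe set missed the threshold, with a difference of 0.53 (95% interval 0.18 to 0.88, limma adjusted p = 0.0754), and it passed only when the 40% dimmest genes were left out (0.0428). TEAD1 read 12.58, 12.65 and 12.74 against 12.81, 12.80 and 12.81, a difference of 0.15 without overlap (0.04 to 0.26, limma adjusted p = 0.109). TEAD2, below the median gene level, read 5.54, 5.87 and 5.93 against 6.68, 5.96 and 6.47, also without overlap (0.59, -0.12 to 1.3). The other probe sets of both genes overlapped between groups. For TEAD1, 214600_at and 1553322_s_at differed by -0.0074 and 0.06. For TEAD2, the dim 238322_s_at, 238323_at and 243766_s_at differed by 0.56, -0.79 and -0.19. With averaged probe sets the differences shrank to 0.07 for TEAD1 and 0.04 for TEAD2. TEAD4 overlapped between groups and differed by -0.11 (-0.36 to 0.14). Its other probe set, 41037_at, also above the median gene level, differed by -0.24 without overlap and did not pass. VGLL4, which competes with YAP for TEAD, read 10.19, 10.26 and 10.48 in control arrays and 10.14, 10.15 and 10.09 in knockdown arrays. Every knockdown array was below the controls, by 0.18 on average, without passing (-0.37 to 0.01, limma adjusted p = 0.265). None of these 5 genes passed. On the probe sets that stand for them, 3 were higher and 1 lower without overlap. Of all genes 11.7% were higher and 14.1% lower without overlap (38.9% in either direction among those above the median level).

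**Figure D3:**
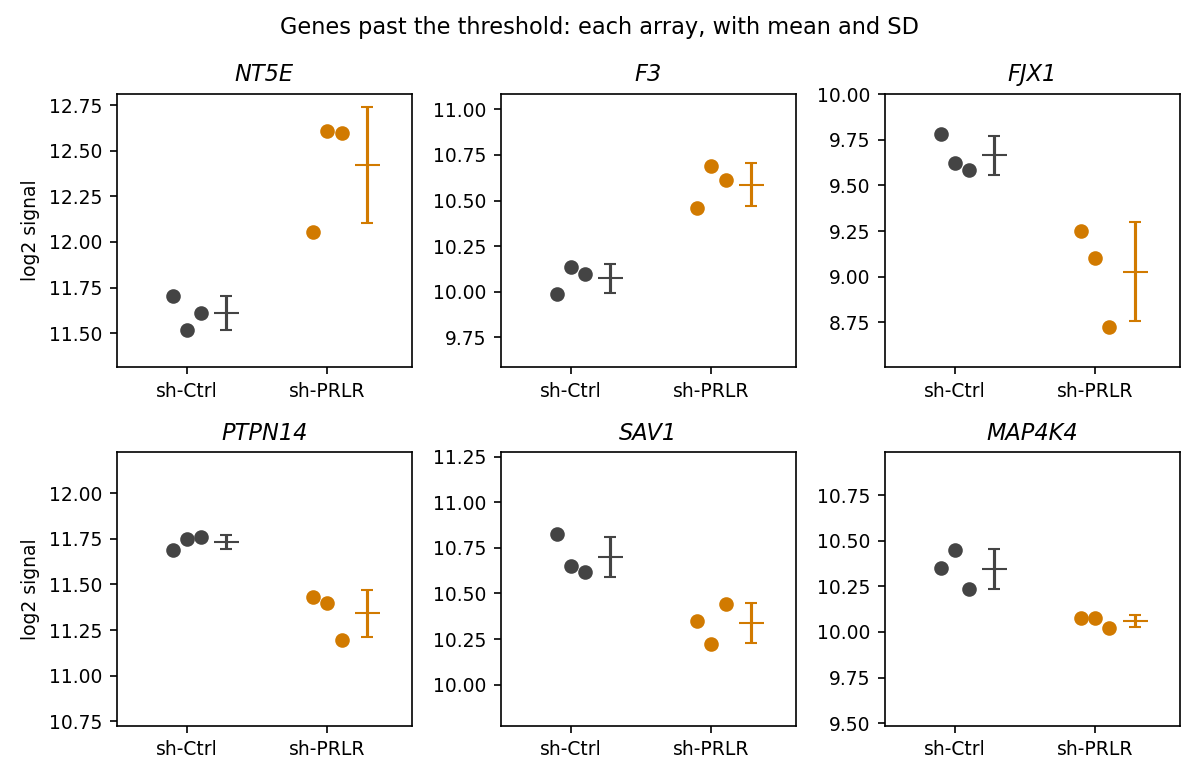
Log2 signal (y axis, 1.5 log2 units in each panel) of the 6 genes that passed, with a point for each array in replicate order and the mean and SD of 3 arrays beside them. Groups do not overlap for any of the 6, and in NT5E sh-PRLR replicate 1 lies between the controls and the other sh-PRLR arrays.

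NT5E, which encodes the cell surface enzyme CD73 that makes adenosine from AMP, showed the largest change among the targets that passed. It read 11.70, 11.52 and 11.61 in control arrays and 12.06, 12.61 and 12.60 in knockdown arrays. Every knockdown array was higher, replicate 1 by less than the others. NT5E rose by 0.81 (SE 0.13, limma adjusted p = 0.00399), 1.75-fold, and by 0.99 without sh-PRLR replicate 1. All 4 of its probe sets were higher: 1553995_a_at passed as well (0.70, limma adjusted p = 0.00258 over all probe sets), 227486_at was higher by 0.63 without overlap or passing, and 1553994_at by 0.25 with overlap.

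F3, the gene of tissue factor, the cell surface starter of blood clotting, read 9.99, 10.14 and 10.10 in control arrays and 10.46, 10.69 and 10.61 in knockdown arrays. The gap between the groups was wider than the spread within either. F3 rose by 0.51 (SE 0.08, limma adjusted p = 0.00394), 1.43-fold, and rested on 1 probe set. Both F3 and NT5E passed in 13 of 14 other settings, all but the default variance.

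FJX1, which encodes a secreted protein related to four-jointed, a fly kinase that acts on the upstream cadherin Fat, read 9.78, 9.63 and 9.58 in control arrays and 9.25, 9.10 and 8.72 in knockdown arrays. All knockdown arrays lay below the controls, sh-PRLR replicate 3 farthest. FJX1 fell by 0.64 (SE 0.13, limma adjusted p = 0.0152), to 0.642 of the control level, and rested on 1 probe set. The call was lost without sh-Ctrl replicate 1 (-0.58, limma adjusted p = 0.0737) or 2 (-0.66, 0.0584).

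CCN1, CCN2 and ANKRD1, the targets most used to read YAP activity, did not pass. CCN1, a matricellular protein gene, read 9.57, 9.90 and 9.78 in control arrays and 9.91, 9.56 and 9.65 in knockdown arrays, with fully overlapping groups and a difference of -0.04 (95% interval -0.30 to 0.21). Its second probe set, 210764_s_at, gave -0.05. CCN2, its paralog, read 7.07, 7.80 and 7.32 against 7.24, 7.40 and 7.41, and the knockdown arrays fell inside the control range (-0.05, -0.51 to 0.42). ANKRD1, a muscle and stress-induced ankyrin repeat gene, read 6.15, 6.50 and 6.0 against 6.28, 6.47 and 6.76, below the median gene level and with overlap (0.29, -0.32 to 0.90). CCN2 and ANKRD1 are the pair whose promoters are shown above with several TEAD matches. A change of the size seen in NT5E lies outside the intervals of CCN1 and CCN2 and inside that of ANKRD1.

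**Figure D4:**
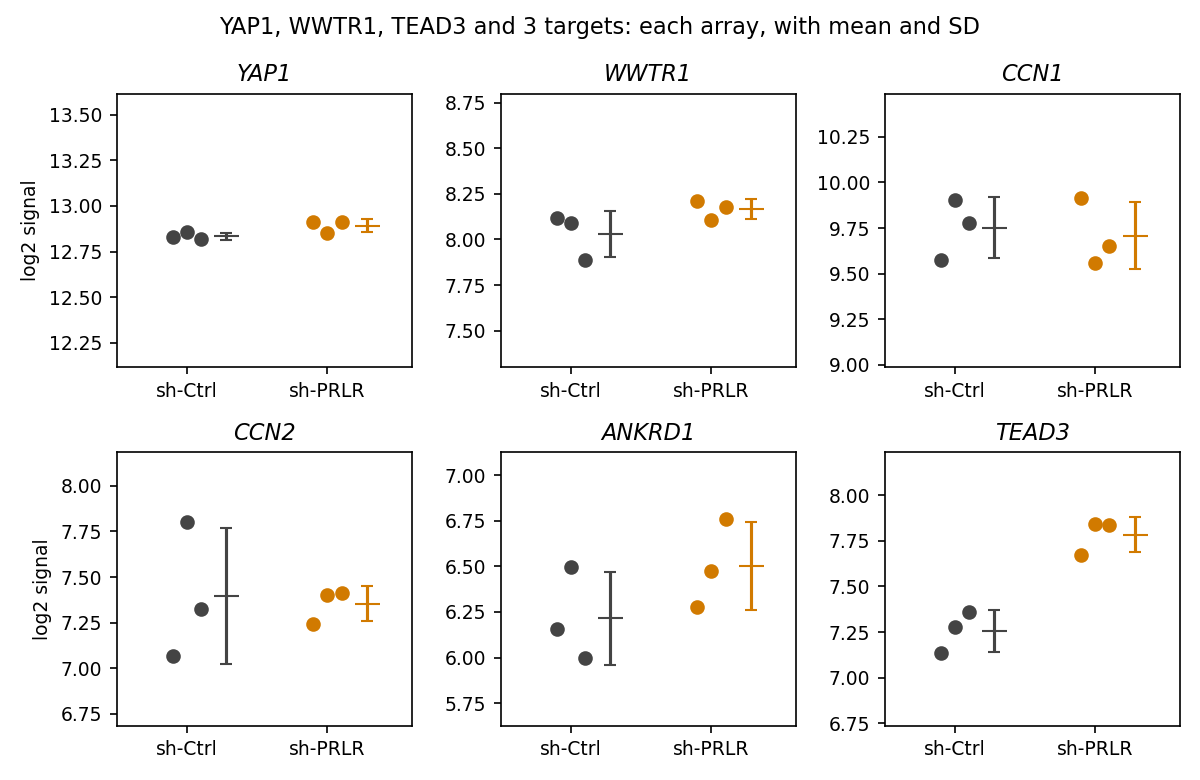
Log2 signal (y axis, 1.5 log2 units in each panel) of YAP1, WWTR1, CCN1, CCN2, ANKRD1 and TEAD3, with a point for each array in replicate order and the mean and SD of 3 arrays beside them. Groups overlap for all but TEAD3, which was higher by 0.53 without passing.

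The remaining 7 targets did not pass either. CRIM1, a membrane protein that binds BMP ligands, read 9.84, 9.66 and 9.60 in control arrays and 9.59, 9.49 and 9.46 in knockdown arrays. All 3 of its probe sets were lower without overlap, by 0.19, 0.25 and 0.26, none passing (limma adjusted p = 0.289 in the test over genes). DLC1, a GTPase-activating protein gene, read 8.16, 8.11 and 8.49 against 8.04, 7.82 and 7.74, lower without overlap (-0.39, 95% interval -0.73 to -0.05, limma adjusted p = 0.176). The next brightest DLC1 probe set, 224822_at, differed by -0.11 with overlap. ASAP1, which acts on ARF GTPases, was higher by 0.10 without overlap, and 2 of its other 4 probe sets were lower. ARHGEF17, an exchange factor gene, differed by -0.32, MYOF, a membrane repair protein gene, by 0.09, TGFB2, a TGF-beta ligand gene, by 0.02, and the receptor kinase gene AXL by -0.21, all with overlap. TGFB2 (95% interval -0.52 to 0.55) and AXL lay below the median gene level. Other TGFB2 probe sets ranged from -0.74 (220407_s_at, without overlap) to 1.01 (209908_s_at, with overlap), none passing. The dimmer AXL probe set went the other way (1.34), without passing.

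Across the 119 probe sets of these genes 8 passed in the fit over all probe sets, 3 higher and 5 lower, 6.72% beside 4.67% of all probe sets (2.17% higher and 2.5% lower). They belonged to NT5E, F3, SAV1, PTPN14 and FJX1, with several from NT5E and from SAV1, so the 8 are not separate genes. These shares of probe sets were not matched for level. The 69 probe sets above the median gene level held all 8, with differences from -0.64 to 0.81, whereas the 50 below it spread from -2.17 to 1.72 and 0 passed in limma (2 had an unadjusted p under 0.05, and 6 with default variance). Over the 37 genes, arrays of the groups did not overlap for 15, 7 higher and 8 lower, or 40.5%, where 25.8% of all genes did not overlap. Above the median level the shares were 45.2% of these genes and 38.9% of all genes.

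**Figure D5:**
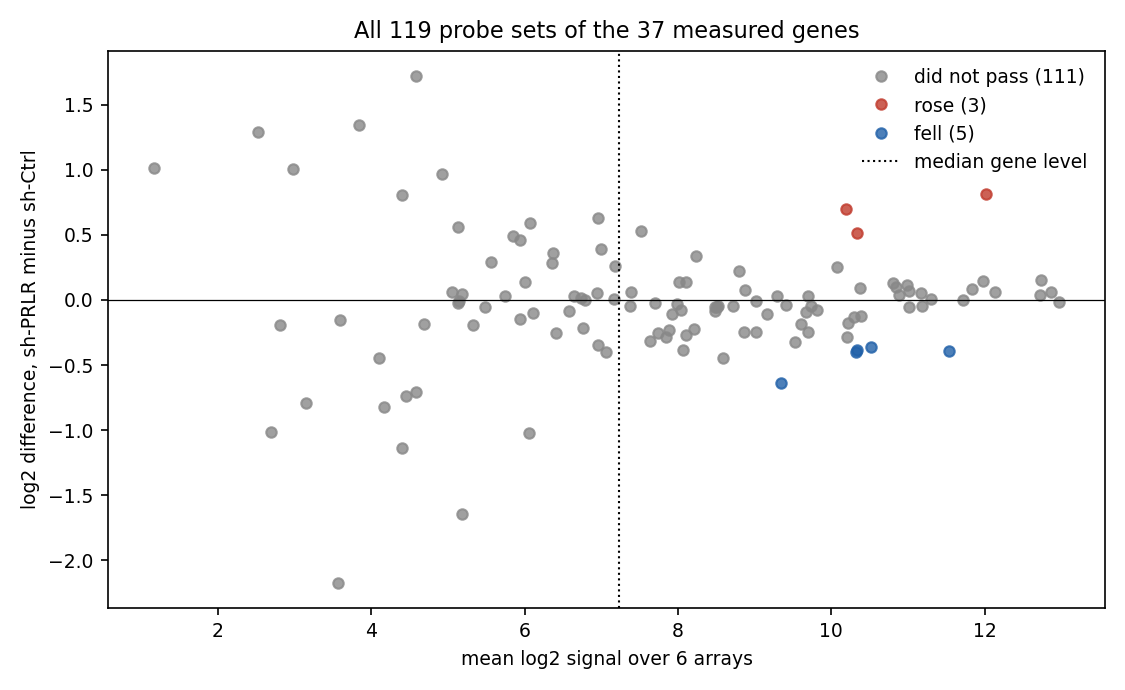
Log2 difference (y axis, sh-PRLR minus sh-Ctrl) against mean log2 signal over 6 arrays (x axis) for all 119 probe sets of the 37 genes; the dotted line is the median gene level of 7.23. The 8 that passed lie to its right, and the widest differences, from -2.17 to 1.72, lie to its left.

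Further genes of the pathway came from a wider list. Of 28 further regulators measured 0 rose and 2 fell, VGLL3, a TEAD-binding cofactor, from 9.49 ± 0.07 to 9.03 ± 0.07 (limma adjusted p = 0.0118) and TAOK3, a kinase of the TAOK1 family, from 9.83 ± 0.09 to 9.47 ± 0.15 (0.0490). This is 7.14% of them, beside 7.66% of all genes. Of 10 further targets, 20% passed: GADD45B, a stress-induced growth arrest gene, rose from 8.49 ± 0.08 to 9.17 ± 0.13 (limma adjusted p = 0.00455), and THBS1, the matricellular thrombospondin, fell from 10.71 ± 0.03 to 9.99 ± 0.17 (0.00114). The median differences were -0.03 and 0.04. AJUBA, a LATS inhibitor, was lower by 0.17 without overlap and just missed the threshold (0.0515).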

How the data were processed

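Total RNA of 6 samples was hybridised to arrays. The deposited values are log2 signals, 1 per probe set and array, and the submitters' processing notes name affy, MAS5 and RMA with no role. The linear mean with 2% trimmed was 500 on all 6 arrays, as MAS5 scaling gives, so values were not normalised again. The platform annotation gave a single symbol for 41091 of 54675 probe sets, which were used (1801 had several). The probe set of highest mean signal stood for its gene, and 31 of the 37 genes lay above the median level; no detection filter was applied.

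The comparison used limma 3.58.1 under R 4.3.3 (eBayes with trend and robust, two-sided, Benjamini-Hochberg over 19775 genes, or over 41091 probe sets where named). The fit was also run on simulated data with independent noise. These took their spread at each signal level from the same arrays, so they cannot decide between the variance settings. All 37 measured genes are described, those that passed with every value. Of the further pathway genes those that passed are named, and AJUBA was chosen after its values were seen. Members, gene lists and the variance setting were chosen with earlier results of these data known. Other settings were default variance, quantile normalisation, median centring, a filter on dim genes, averaged probe sets, no _x_at or _s_at probe sets, a replicate block, every probe set tested, and each array left out. P-values measure the spread between these arrays, whose number limits the precision. Plots used matplotlib 3.10.9 under Python 3.11.15.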

Additional observations from a re-analysis of the deposited data

How the results depend on the processing

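Over all genes 1514 passed, 660 higher and 854 lower. The count was 4 with default variance, 504 with median centring (143 higher and 361 lower), 609 with averaged probe sets, 1090 with the replicate block, and 665 to 1322 when 1 array was left out. Same-numbered arrays deviated from their group means with correlations of -0.056, 0.059 and -0.1 over genes above the median level. Arrays with unlike numbers gave -0.051 to 0.108. With 3 arrays a group such values cannot settle whether the numbers share a pairing. The core count of 3 became 0 with default variance, 0 with median centring, 0 with averaged probe sets and 1 without _x_at and _s_at probe sets, was 2 with the replicate block, and ranged from 1 to 3 with 1 array left out. The target count of 3 became 0 with default variance, was 3 with the block and 2 to 3 with 1 array left out, and kept NT5E and F3 in all but the default variance. The 4 other pathway genes became 0 with default variance, 2 with median centring, 0 with averaged probe sets and 2 without _x_at and _s_at probe sets, were 4 with the block, and ranged from 2 to 6 with 1 array left out. The 8 probe sets became 0 with default variance and 2 with median centring, and were 7 with the block. The cause of these losses was not tested. Median centring moved the median difference of all genes from -0.0013 to -0.04. SAV1 has no other kind of probe set, so leaving out _x_at and _s_at probe sets gave no value for it. Of the genes that did not pass, some changed sign in other settings, again without passing. With averaged probe sets this gave -0.035 for STK4, -0.13 for LATS1, 0.040 for TAOK1, 0.049 for WWC1, -0.38 for WWTR1, -0.086 for TGFB2, 0.56 for AXL and -0.039 for MYOF. Median centring gave -0.024 for LATS1 and -0.018 for TGFB2, quantile normalisation 0.001 for TAOK1, and leaving out _x_at and _s_at probe sets -0.082 for MYOF. With 1 array left out the range was -0.098 to 0.075 for LATS1, -0.030 to 0.029 for TAOK1, -0.019 to 0.16 for MOB1B, -0.12 to 0.012 for NF2, -0.11 to 0.035 for AMOTL2, -0.15 to 0.033 for CCN1, -0.21 to 0.16 for CCN2 and -0.078 to 0.19 for TGFB2.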
